A study of Mus musculus with 6 samples.

Results

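The 34 genes described here encode proteins that license and fire replication origins, unwind and copy DNA, process Okazaki fragments and supply deoxynucleotides, together with the G1/S regulators E2f1, Ccne1 and Ccne2. They are a named list, matched by symbol in the deposited gene table, and all 34 were found among its 48897 genes. Each of the 34 was also among the 18563 genes with enough counts to be tested. By role the list holds 9 subunits of the replicative helicase, 5 genes of origin licensing and firing, 8 polymerase, clamp and clamp loader genes, 3 Okazaki fragment and uracil repair enzymes, 4 nucleotide supply genes, 2 genes of chromatin at the fork and the 3 G1/S regulators.

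Poly(A)-selected RNA was sequenced from mouse embryonic fibroblasts, connective tissue cells cultured from C57BL/6 embryos and used at passages 5 to 7. There were 3 groups of 2 libraries: cells given phosphate-buffered saline (control), cells given TNF-α with cycloheximide (TC), and cells given TNF-α, cycloheximide and z-VAD-fmk (TCZ). Cycloheximide stops protein synthesis, z-VAD-fmk inhibits caspases, and TNF-α is a cytokine that signals inflammation and, in some settings, cell death. No source used here gives doses or times, and TNF-α and cycloheximide were always combined, so their shares in a difference cannot be told apart. No group received z-VAD-fmk alone. The labels do not say whether a group's libraries are separate cultures, so p-values reflect only the spread among these libraries, and that spread may be technical.

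Before S phase, the origin recognition complex, CDC6 and CDT1 load the ring of MCM proteins onto origins, and CDC45 and the GINS complex then join the ring to form the moving helicase. DNA polymerases copy the strands with the PCNA clamp, which replication factor C loads, while ribonucleotide reductase, thymidylate synthase and thymidine kinase supply the nucleotides. Many of these genes are transcribed by E2F factors when a fibroblast passes from G1 into S phase, a step driven by cyclin E.

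Library totals lay between 24922627 and 52909926 counts, and the 34 genes took 0.154% to 0.18% of them. The libraries control 2 and TCZ 2 differed from the remaining 4, with totals of 26834352 and 24922627 against at least 46509236, and with 3 and 1 counts of the small nuclear RNA gene Rnu1a1 against 165 to 274. Mitochondrial genes took 0.229% and 0.256% of the counts in the TCZ libraries and 0.116% to 0.132% in the others, and the part of this in the TCZ results was not tested. All 10 fibroblast marker genes were detected, with summed levels of 34300 to 37100 CPM in control, 32800 to 33100 CPM in TC and up to 37300 CPM in TCZ, where CPM is counts per 1e6 counts, scaled between libraries by TMM. Single fibroblast markers moved under that sum: 6 of the 10 were lower and 3 higher in TC than in control, with Pdgfrb at 508 CPM in control, 151 CPM in TC and 278 CPM in TCZ and Pdgfra at 106, 63.5 and 16.5 CPM. Summed over 7 endothelial markers the level was 12.6 to 13.2 CPM in control, 141 to 148 CPM in TC and 56.6 to 57.6 CPM in TCZ, and in TC Kdr made up 141 CPM of it while Tie1 was at 0. Over 7 epithelial markers the sum was 16.7 to 19.4 CPM, 75.2 to 82.1 CPM and 13.4 to 17.8 CPM in the same order, with Krt19 at 66.6 CPM, Cdh1 at 0.234 CPM and Epcam at 0.285 CPM in TC. The 8 macrophage and leukocyte markers summed to 11.8 CPM, 9.5 to 11 CPM and 20.3 to 22.4 CPM. The 6 neural markers summed to 38.1 to 41.8 CPM, 16.4 to 19.2 CPM and 22.6 to 23.4 CPM, and the 6 skeletal muscle markers to 202 to 218 CPM, 174 to 177 CPM and 196 to 205 CPM. The part of these markers in the results was not tested. In bulk RNA, fewer cells in S phase and less RNA per cell cannot be told apart.

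Promoters of 4 members are printed because the genes moved in different ways: Mcm3 and Pola1 were higher than control in TC and in TCZ, Orc1 was lower in TC and then higher in TCZ than in TC, and Rfc3 was lower in both. Each runs 5′ to 3′ on the gene's strand from 250 bases before the start site to 50 after it, from RefSeq on GRCm38.p6. Capitals mark exact matches, on either strand, to the E2F words TTTCCCGC, TTTCGCGC, TTTGCCGC and TTTGGCGC. The windows are chr1:20820263-20820562 (minus strand) for Mcm3, chrX:93632106-93632405 (minus) for Pola1, chr4:108579204-108579503 (plus) for Orc1 and chr5:151651159-151651458 (minus) for Rfc3. The Orc1 window lies inside the longer gene span that the deposited table gives on mm10, chr4:108575620-108616030. All 4 printed windows hold an E2F word, whereas 12 of the 28 members with a promoter do. The windows of Ccne1, Ung, Fen1 and Mcm10, which are not printed, hold none.
Mcm3: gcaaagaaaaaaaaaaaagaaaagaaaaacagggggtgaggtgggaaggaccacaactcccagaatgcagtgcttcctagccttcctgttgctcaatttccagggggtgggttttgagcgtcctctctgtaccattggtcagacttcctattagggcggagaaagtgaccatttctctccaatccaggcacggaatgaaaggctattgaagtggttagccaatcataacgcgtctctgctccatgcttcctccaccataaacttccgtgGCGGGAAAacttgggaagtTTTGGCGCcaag
Pola1: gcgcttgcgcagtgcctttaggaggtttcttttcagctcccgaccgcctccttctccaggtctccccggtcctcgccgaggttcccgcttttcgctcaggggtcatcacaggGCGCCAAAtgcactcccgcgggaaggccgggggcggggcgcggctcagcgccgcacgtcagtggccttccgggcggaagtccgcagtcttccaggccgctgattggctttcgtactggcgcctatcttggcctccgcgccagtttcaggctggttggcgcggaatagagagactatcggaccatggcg
Orc1: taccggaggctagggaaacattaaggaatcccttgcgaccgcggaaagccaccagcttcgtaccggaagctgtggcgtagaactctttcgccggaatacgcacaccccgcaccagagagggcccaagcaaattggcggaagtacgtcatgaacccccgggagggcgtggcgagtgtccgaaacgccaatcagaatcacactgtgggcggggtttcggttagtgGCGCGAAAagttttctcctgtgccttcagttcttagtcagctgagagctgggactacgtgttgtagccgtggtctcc
Rfc3: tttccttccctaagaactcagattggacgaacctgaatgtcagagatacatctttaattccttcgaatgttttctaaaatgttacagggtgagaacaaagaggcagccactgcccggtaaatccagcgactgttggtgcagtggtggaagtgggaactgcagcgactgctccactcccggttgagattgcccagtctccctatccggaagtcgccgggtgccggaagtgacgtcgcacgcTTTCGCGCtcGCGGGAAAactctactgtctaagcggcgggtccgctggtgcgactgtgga

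A promoter was at hand for 28 of the 34 members. An E2F word occurred in 12 of these 28 genes (42.9%), against 551 of 12782 tested genes with a promoter (4.3%) and 704 of all 27025 genes in the promoter set (2.6%). The 12 were Cdc6, Cdt1, Hells, Lig1, Mcm3, Mcm5, Mcm6, Mcm7, Orc1, Pola1, Pold1 and Rfc3. Lig1, Mcm7 and Fen1 have windows at different start sites, and a gene is counted if any of its windows holds the word. The E2F word of Lig1 is in a window inside the deposited gene span (chr7:13278576-13278875). The Lig1 window before that span holds none. The windows of Cdc6, E2f1 and Mcm10, like that of Orc1, lie wholly inside the deposited gene span. For these genes the bases before that span were not searched. E2f1 and Mcm10 are counted here without an E2F word. The Mcm10 window ends in tttggcg, so a TTTGGCGC reaching past its end would not be counted. The CCAAT box, searched as CCAAT on both strands, occurred in 15 of 28 (53.6%) against 42.4% of tested genes. The CHR word TTTGAA, known from genes of late cell cycle stages, occurred in 3 of 28 (10.7%) against 15.1%. The AP-1 words TGACTCA and TGAGTCA occurred in 0 of 28 against 5.1%, and a set of NF-kB words in 0 of 28 against 0.7%. Median GC content was 61.6% for the members' promoters and 60.0% for those of the tested genes. Matching letters describe the windows only and do not show that a factor binds there. No promoter is given for Gins1, Gins2, Mcm4, Pole, Ccne2 and Rfc2.

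Under TNF-α with cycloheximide most of the list fell. Of the 34 members 22 were lower in TC than in control, 5 were higher and 7 did not pass an adjusted p of 0.05 in edgeR's quasi-likelihood test with Benjamini-Hochberg adjustment, the source of every adjusted p for a gene given here. Over all genes tested 29.1% were lower, 31.5% higher and 60.7% called in either direction. The members' median log2 fold change was -0.39, against 0.025 for all genes, and single members ran from -1.80 (Ung) to 1.05 (Mcm10). Scaling by library totals in place of TMM gave 28 members lower and 5 higher, with a members' median of -0.53. Among all genes 6586 were then lower and 5080 higher, in place of 5408 and 5856. Called falls of at least 2-fold were measured for 8 members (11.7% of all genes) and a called rise of at least 2-fold for 1 (17.6% of all genes). All 3 G1/S regulators and all 3 Okazaki fragment and uracil repair enzymes fell, while the 5 that rose were Mcm3, Mcm4, Mcm10, Pola1 and Rrm1.

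With z-VAD-fmk added, the list split evenly against control. Of the 34 members 13 were higher in TCZ than in control, 13 were lower and 8 did not pass, against 31.5% higher, 28.6% lower and 60.1% called in either direction among all genes. The median log2 fold change of the members was 0.06, against 0.05 for all genes. The largest rise was that of Mcm10 (1.92) and the largest fall that of Ung (-1.69). Scaling by library totals alone shifted the median of all genes from 0.025 to -0.111 for TC and from 0.048 to -0.151 for TCZ, each against control, and from 0.017 to -0.04 between TCZ and TC, so fold changes are relative to the TMM scale. With library totals the members' median in TCZ against control turned negative, from 0.06 to -0.14, and the split became 7 higher and 16 lower (4556 and 7017 of all genes, in place of 5851 and 5313). The 7 that stayed higher with library totals were Mcm3, Mcm4, Mcm10, Pola1, Pcna, Rrm2 and Hells. The members' median in TCZ against control was 0.035 without control 2 and 0.024 without TCZ 1, against 0.055 and 0.01 for all genes.

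TCZ differed from TC mainly in one direction. Of the 34 members 22 were higher in TCZ than in TC, 2 were lower (Ccne2 and Rrm1) and 10 did not pass, against 28.2% higher, 27.9% lower and 56.1% called in either direction among all genes. The median log2 fold change was 0.35 for the members and 0.02 for all genes. Orc1 (1.13) and Ccne1 (1.07) were at least 2-fold higher, 2 of 34 members against 11.6% of all genes. The 3 comparisons share libraries (each group enters 2 of them), so their counts are not independent of each other. Without control 2 and TCZ 2, the members' median was -0.451 for TC and 0.058 for TCZ, each against control, and 0.416 between TCZ and TC. The medians of all genes were then 0.064, 0.044 and -0.004. With no low-count filter 18 members were higher in TCZ than in TC, and 4528 of all genes in place of 5235. The members' median between TCZ and TC was 0.258 without TCZ 1, 0.306 without TC 2 and 0.327 without TC 1. The medians of all genes were then -0.015, 0.025 and 0.034.

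**Figure D1:**
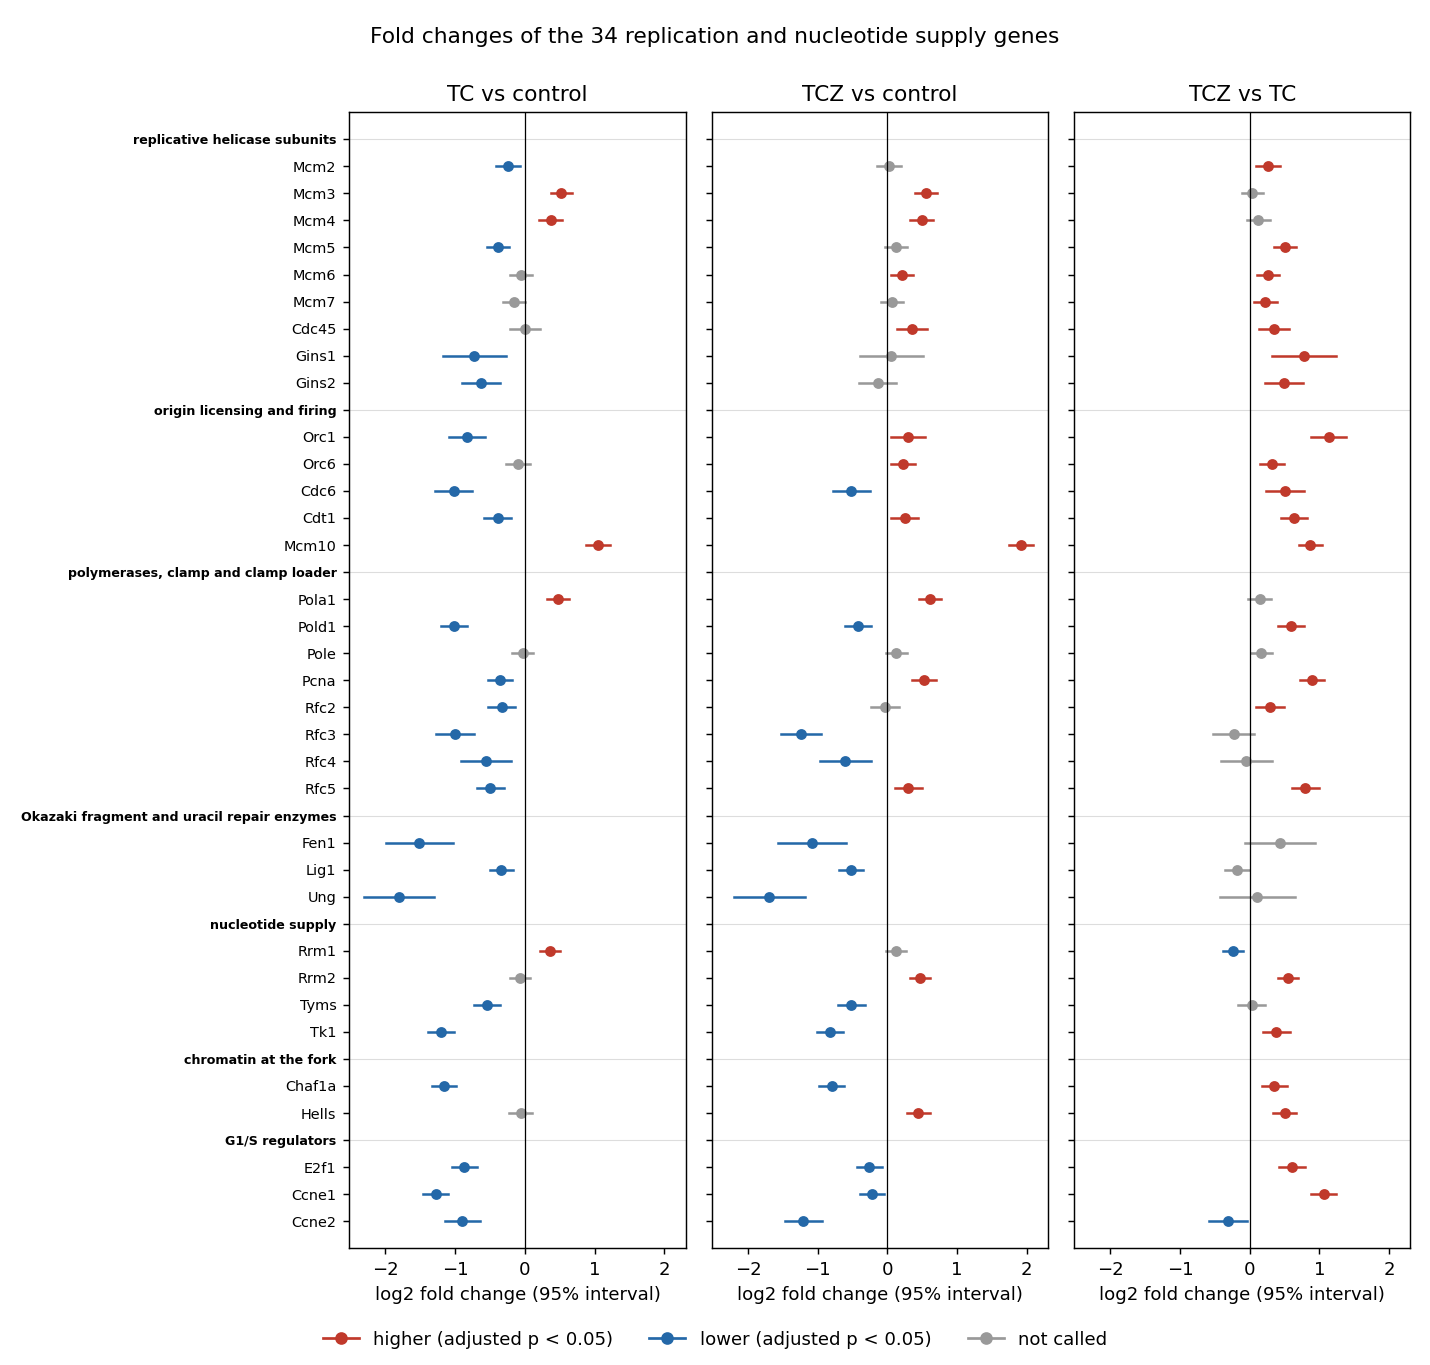
Log2 fold change (x axis) of each of the 34 genes (y axis, grouped by role) in each of the 3 comparisons (panels). Panels run left to right: TC and TCZ each against control, then TCZ against TC. The 95% intervals come from the model of all 6 libraries (2 a group), with the spread shared in part across genes. Points are red where higher and blue where lower at an adjusted p below 0.05, and grey otherwise. Blue points fill most of the left panel (22 lower, 5 higher) and red points most of the right panel (22 higher, 2 lower).

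Setting the 3 comparisons side by side, 15 of the 34 members fell in TC and were higher in TCZ than in TC, as did 2546 of all 18563 genes tested (13.7%). Both calls use the same 2 TC libraries and so are not independent. Of the 15, Orc1, Cdt1, Pcna and Rfc5 stood above control in TCZ (with library totals Pcna only). Cdc6, Pold1, Tk1, Chaf1a, E2f1 and Ccne1 stayed below control, and Mcm2, Mcm5, Gins1, Gins2 and Rfc2 did not pass against it. With library totals Mcm2, Gins2 and Rfc2 passed as lower in TCZ than in control, at -0.178, -0.34 and -0.238. With a filter of 50 counts in 2 libraries Mcm5 passed as higher there (0.18). The opposite case, higher in TC than in control and lower in TCZ than in TC, was Rrm1. Rfc3, Rfc4, Fen1, Lig1, Ung and Tyms were lower in TC and in TCZ, with no call between TCZ and TC, and Ccne2 was lower in all 3 comparisons. Mcm3, Mcm4 and Pola1 were higher than control in TC and in TCZ, with no call between TCZ and TC. With the filter of 50 counts Mcm4 and Pola1 passed as higher in TCZ than in TC (0.162 and 0.178). Mcm6, Cdc45, Orc6, Rrm2 and Hells did not pass in TC and were higher in TCZ than in either other group. Mcm10 was higher in all 3 comparisons, Mcm7 passed in TCZ against TC alone, and Pole passed in none. With library totals Mcm6, Mcm7, Orc6, Rrm2, Hells and Pole were called lower in TC than in control. Their log2 fold changes then ran from -0.297 (Mcm7) to -0.178 (Pole). Mcm7 was also called lower in TC with only the groups compared (-0.163) and with a batch term for control 2 and TCZ 2 (-0.22).

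The 3 G1/S regulators all fell in TC and parted in TCZ. Ccne1 (chr7:38097984-38107490, minus strand), which encodes cyclin E1, the partner of CDK2, was at 36.9 and 35.3 CPM in control, 14.4 and 15.4 CPM in TC, and 31.7 and 30.5 CPM in TCZ. The TC libraries lay below all others, and TCZ lay just under control with no overlap. Ccne1 fell by 1.28 ± 0.09 (log2, SE) in TC (adjusted p = 1.53e-11) and was higher in TCZ than in TC by 1.07 ± 0.09 (adjusted p = 8.07e-10). The TCZ difference from control, -0.22 ± 0.08 (adjusted p = 0.029), did not pass in 7 of 16 alternatives, among them those without control 1 (adjusted p = 0.146), TCZ 1 (0.0537) or TCZ 2 (0.147).

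E2f1 (chr2:154559400-154569892, minus strand), the transcription factor that activates many genes of this list, had 30.6 and 28.7 CPM in control, 15.6 and 16.9 CPM in TC, and 25.01 and 24.7 CPM in TCZ. The 3 groups did not overlap and TCZ lay between the others. E2f1 fell by 0.87 ± 0.09 in TC (adjusted p = 1.70e-08), and TCZ was 0.61 ± 0.09 above TC (adjusted p = 5.36e-06). Against control E2f1 was at -0.26 ± 0.09 in TCZ (adjusted p = 0.0152), a call lost without control 1 (adjusted p = 0.12) or TCZ 2 (0.0645) and in DESeq2 (0.0676).

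Ccne2 (chr4:11190298-11204779, plus strand), which encodes cyclin E2, went the other way from Ccne1 between TC and TCZ. Its libraries read 13.7 and 13.3 CPM in control, 7.15 and 7.33 CPM in TC, and 5.67 and 6.08 CPM in TCZ, so each group lay below the one before. Ccne2 fell by 0.90 ± 0.12 in TC (adjusted p = 1.14e-06) and by 1.20 ± 0.13 in TCZ (adjusted p = 3.32e-08). Its difference of -0.31 ± 0.13 between TCZ and TC (adjusted p = 0.0485) held in 1 of 16 alternatives. In annotation, 17.4% of the Ccne2 exon bases overlap Ints8 on the opposite strand, and no source used here gives the strand setting of the counting. The ratio of deposited RPKM (reads per kilobase of gene and 1e6 counts) of Ccne1 to Ccne2 stood at 4.75 and 4.68 in the control libraries, 3.53 and 3.68 in those of TC and 9.81 and 8.8 in those of TCZ.

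**Figure D2:**
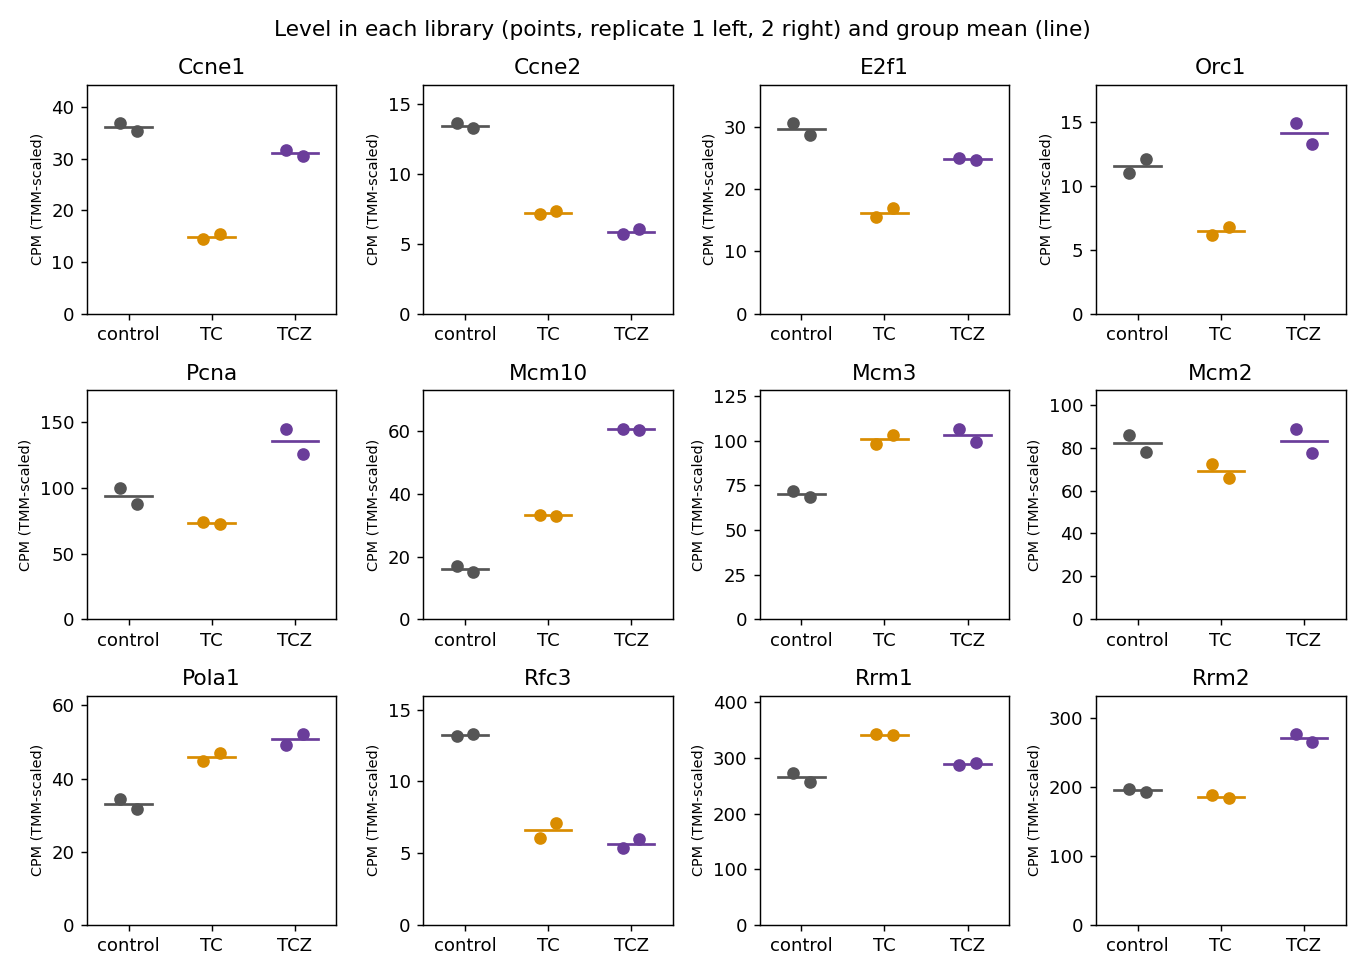
Level of 12 of the genes in each of the 6 libraries (y axis, TMM-scaled CPM from 0, points, with the group mean as a line) for control, TC and TCZ (x axis). Ccne1, E2f1, Orc1 and Pcna dip in TC, Mcm10 steps up from 16.8 and 15.2 CPM in control to 60.8 and 60.3 CPM in TCZ, Ccne2 steps down, and Rrm1 is highest in TC while Rrm2 is highest in TCZ.

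Origin licensing and firing genes rose from TC to TCZ in all 5 cases. Mcm10 (chr2:4990724-5015567, minus strand), which encodes a factor that helps to activate the loaded helicase, read 16.8 and 15.2 CPM in control, 33.3 and 33.0 CPM in TC, and 60.8 and 60.3 CPM in TCZ. The groups were far apart compared with the gap between libraries of a group. It rose by 1.05 ± 0.08 in TC (adjusted p = 2.83e-10) and by 1.92 ± 0.08 in TCZ (adjusted p = 8.65e-15), and TCZ was 0.87 ± 0.08 above TC (adjusted p = 3.79e-09).

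Orc1 (chr4:108575620-108616030, plus strand), the largest subunit of the origin recognition complex, read 10.99 and 12.1 CPM in control, 6.12 and 6.80 CPM in TC, and 14.9 and 13.3 CPM in TCZ. Both TC libraries lay below both control libraries, and both TCZ libraries above them. Orc1 fell by 0.83 ± 0.12 in TC (adjusted p = 3.92e-06) and was 1.13 ± 0.12 higher in TCZ than in TC (adjusted p = 6.54e-08), the largest rise of a member in that comparison. Its excess over control in TCZ, 0.30 ± 0.12 (adjusted p = 0.0334), was lost without control 1 (adjusted p = 0.251), control 2 (0.0678) or TCZ 1 (0.3), and with library totals (0.51). Of the Orc1 exon bases 10.8% overlap Gm12743 on the opposite strand.

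The licensing factors that bring MCM rings to origins also had their lowest levels in TC. Cdc6, an ATPase of that step, was at 13.9 and 14.7 CPM in control, 7.95 and 6.16 CPM in TC, and 10.2 and 9.72 CPM in TCZ. It fell by 1.02 ± 0.13 in TC (adjusted p = 3.91e-07), was 0.50 ± 0.13 higher in TCZ than in TC (adjusted p = 0.00263, or 0.0785 without TC 2) and was at -0.52 ± 0.13 in TCZ against control (adjusted p = 0.00133, or 0.0516 without control 2 and TCZ 2). Cdt1, its partner in MCM loading, was at 28.7 and 26.5 CPM in control, 21.9 and 20.4 CPM in TC, and 35.4 and 30.0 CPM in TCZ. The Cdt1 groups did not overlap, with a log2 change of -0.39 ± 0.09 in TC (adjusted p = 9.74e-04) and a TCZ level 0.64 ± 0.09 above TC (adjusted p = 4.69e-06). Cdt1 in TCZ passed against control at 0.25 ± 0.09 (adjusted p = 0.0246), but not without control 2 (adjusted p = 0.221) or TCZ 1 (0.467). Orc6, a further subunit of the origin recognition complex, was at -0.10 ± 0.08 in TC (adjusted p = 0.318) and was 0.32 ± 0.08 higher in TCZ than in TC (adjusted p = 0.00211, or 0.0663 without TCZ 1). The Orc6 difference of 0.22 ± 0.08 between TCZ and control (adjusted p = 0.0235) was lost without control 2 (adjusted p = 0.213), TC 1 (0.0506) or TCZ 1 (0.304).

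The ring of 6 MCM subunits did not move as one unit. Mcm3 (chr1:20803014-20820213, minus strand) read 71.9 and 68.4 CPM in control, 98.4 and 103 CPM in TC, and 107 and 99.5 CPM in TCZ, with all 4 treated libraries above control. It rose by 0.52 ± 0.07 in TC (adjusted p = 2.13e-06) and by 0.56 ± 0.07 in TCZ (adjusted p = 1.02e-06). Mcm4 rose with it, from 105 ± 12.4 CPM (SD, n = 2) in control to 136 ± 1.53 CPM in TC and 148 ± 5.00 CPM in TCZ, or by 0.37 ± 0.08 and 0.49 ± 0.08 (adjusted p = 3.53e-04 and 1.43e-05). Neither passed between TCZ and TC (0.03 ± 0.07 for Mcm3 and 0.12 ± 0.08 for Mcm4, adjusted p = 0.707 and 0.188). Mcm4 passed as higher there with the filter of 50 counts (0.162, adjusted p = 0.031). It also did so with a batch term for control 2 and TCZ 2 (0.198, adjusted p = 0.00762).

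Mcm2 and Mcm5, ring partners of Mcm3 and Mcm4, had their lowest values in TC. Mcm5 read 49.8 and 47.4 CPM in control, 35.8 and 38.5 CPM in TC, and 53.8 and 52.1 CPM in TCZ. It fell by 0.39 ± 0.08 in TC (adjusted p = 1.09e-04) and was 0.51 ± 0.08 higher in TCZ than in TC (adjusted p = 5.62e-06), with control and TCZ 0.12 ± 0.08 apart (adjusted p = 0.171). Mcm2 read 86.0 and 78.1 CPM in control, 72.5 and 66.1 CPM in TC, and 89.0 and 77.4 CPM in TCZ, and control and TCZ overlapped. Its log2 change of -0.25 ± 0.08 in TC (adjusted p = 0.0133) was lost without control 1 (adjusted p = 0.184) or TC 2 (0.206). The Mcm2 rise of 0.27 ± 0.08 from TC to TCZ (adjusted p = 0.00884) was lost without TC 2 (adjusted p = 0.176) or TCZ 1 (0.207), and its value of 0.02 in TCZ against control turned to -0.18 (adjusted p = 0.022) with library totals. Mcm6 and Mcm7 did not pass in TC (-0.06 ± 0.07 and -0.15 ± 0.08, adjusted p = 0.534 and 0.0911). Both passed as lower there with library totals (-0.2 and -0.297). Mcm7 also did so with only the groups compared (adjusted p = 0.00948) and with a batch term for control 2 and TCZ 2 (0.00542). From TC to TCZ Mcm6 was 0.26 ± 0.07 higher (adjusted p = 0.00488) and Mcm7 0.22 ± 0.08 higher (adjusted p = 0.0176), and both calls were lost without TC 1, TC 2 or TCZ 1, at adjusted p from 0.059 to 0.356. Mcm6 was also 0.21 ± 0.08 above control in TCZ (adjusted p = 0.0212), a call lost without control 2, TC 1, TC 2 or TCZ 1, at adjusted p from 0.0581 to 0.33.

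Of the factors that turn the ring into a moving helicase, Gins1 and Gins2 fell in TC, while Cdc45 did not pass there. Gins1 and Gins2 encode subunits of the GINS complex. Gins1 read 3.61 and 3.85 CPM in control, 2.39 and 2.11 CPM in TC, and 3.65 and 4.14 CPM in TCZ, a log2 change of -0.72 ± 0.22 in TC (adjusted p = 0.00675) and a rise of 0.78 ± 0.22 from TC to TCZ (adjusted p = 0.00468). Gins2 read 20.2 and 18.02 CPM, 14.1 and 10.8 CPM, and 19.5 and 14.9 CPM in the same order. In both genes the TC libraries lay below all others while control and TCZ overlapped. In TCZ against control Gins2 was at -0.14 ± 0.13 (adjusted p = 0.366), and it passed as lower with library totals (-0.34, adjusted p = 0.0261). Gins2 fell by 0.63 ± 0.13 in TC (adjusted p = 2.22e-04), and its difference of 0.49 ± 0.13 between TCZ and TC (adjusted p = 0.00306) was lost without TC 2 (adjusted p = 0.0573) or TCZ 1 (0.122). The Gins2 values are uncertain, since 67.3% of its exon bases overlap Gse1 on the opposite strand. Cdc45 was at 17.9 ± 2.39 CPM (SD, n = 2) in control, 17.9 ± 1.12 CPM in TC and 22.6 ± 1.61 CPM in TCZ. It was 0.35 ± 0.10 higher in TCZ than in control (adjusted p = 0.00616, or 0.18 without control 1 and 0.0749 without TCZ 1) and 0.35 ± 0.10 higher than in TC (adjusted p = 0.00677, or 0.073 without TC 1 and 0.085 without TCZ 1).

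The catalytic subunits of the 3 replicative polymerases each took their own course. Pola1 (chrX:93304766-93632219, minus strand), of the polymerase that lays down the primer-linked start of each strand, read 34.4 and 31.7 CPM in control, 44.8 and 47.1 CPM in TC, and 49.3 and 52.2 CPM in TCZ. It rose by 0.47 ± 0.08 in TC (adjusted p = 1.63e-05) and by 0.61 ± 0.08 in TCZ (adjusted p = 5.95e-07), with no overlap with control. Pold1 (chr7:44532744-44548815, minus strand), of the polymerase that extends the lagging strand, read 32.8 and 30.1 CPM, 15.9 and 15.3 CPM, and 23.7 and 23.3 CPM. Its 3 groups did not overlap, with TC lowest and TCZ between. Pold1 fell by 1.02 ± 0.09 in TC (adjusted p = 1.33e-09), was at -0.42 ± 0.09 in TCZ against control (adjusted p = 2.71e-04) and 0.59 ± 0.09 higher in TCZ than in TC (adjusted p = 8.15e-06). Pole, of the leading strand polymerase, did not pass in any comparison, at 47.7 ± 1.05 CPM (SD, n = 2) in control, 46.6 ± 0.21 CPM in TC and 52.2 ± 1.42 CPM in TCZ. The 95% interval of its log2 difference ran from -0.18 to 0.12 in TC against control and from -0.02 to 0.28 in TCZ against control. Pole passed as lower in TC with library totals (-0.178, adjusted p = 0.0251). It passed as higher in TCZ than in control with the filter of 50 counts (0.187, adjusted p = 0.0106). Between TCZ and TC it passed as higher with RLE size factors (adjusted p = 0.0312) and the filter of 50 counts (0.00693). A batch term for control 2 and TCZ 2 gave 0.0493 there.

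Pcna (chr2:132249286-132253180, minus strand), the sliding clamp, read 99.8 and 87.4 CPM in control, 73.9 and 72.5 CPM in TC, and 145 and 126 CPM in TCZ. Every TC library lay below and every TCZ library above the control libraries. Pcna fell by 0.36 ± 0.08 in TC (adjusted p = 7.67e-04), was 0.53 ± 0.08 above control in TCZ (adjusted p = 8.38e-06) and 0.89 ± 0.08 above TC (adjusted p = 7.40e-09). The pseudogene Pcna-ps2 held between 7 and 36 counts in a library.

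Subunits of replication factor C, the complex that loads the clamp, fell in TC in 4 of 4 cases and parted in TCZ. Rfc3 (chr5:151642824-151651208, minus strand) read 13.2 and 13.3 CPM in control, 6.04 and 7.12 CPM in TC, and 5.32 and 6.00 CPM in TCZ. All 4 treated libraries lay far below control, with log2 changes of -1.01 ± 0.13 in TC (adjusted p = 6.29e-07) and -1.24 ± 0.14 in TCZ (adjusted p = 6.59e-08). Rfc5 read 24.8 and 22.6 CPM, 16.9 and 16.8 CPM, and 27.3 and 31.8 CPM in the same order. Rfc5 was lowest in TC and highest in TCZ, with a log2 change of -0.50 ± 0.09 in TC (adjusted p = 1.06e-04) and a rise of 0.80 ± 0.09 from TC to TCZ (adjusted p = 2.92e-07). Its excess over control in TCZ, 0.30 ± 0.09 (adjusted p = 0.00821), was lost without control 2 (adjusted p = 0.119) or TCZ 2 (0.129), and with library totals (0.343). The RPKM ratio of Rfc5 to Rfc3 stood at 1.33 and 1.19 in the control libraries, 1.97 and 1.66 in those of TC and 3.6 and 3.72 in those of TCZ, so it was higher in each TCZ library than in every other.

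Rfc2 read 27.5 and 25.9 CPM in control, 21.3 and 21.1 CPM in TC, and 28.5 and 23.2 CPM in TCZ, and control and TCZ overlapped. In TCZ against control Rfc2 was at -0.04 ± 0.10 (adjusted p = 0.76), and it passed as lower with library totals (-0.238, adjusted p = 0.0236). It fell by 0.33 ± 0.10 in TC (adjusted p = 0.00461, or 0.0717 without control 1), and its rise of 0.30 ± 0.10 from TC to TCZ (adjusted p = 0.0124) was lost without TC 2 (adjusted p = 0.0533) or TCZ 1 (0.446). Rfc4 had the widest gap of any member between libraries of a group, at 7.24 and 4.43 CPM in TCZ. It fell by 0.56 ± 0.17 in TC (adjusted p = 0.00743, or 0.123 without control 1) and by 0.60 ± 0.18 in TCZ (adjusted p = 0.00523, or 0.0852 without control 1 and 0.0876 without TCZ 2). Overlap with genes on the opposite strand makes single values of these subunits uncertain: 15.1% of the Rfc2 exon bases overlap Lat2, 12.7% of the Rfc4 exon bases Eif4a2 and 10.7% of the Rfc5 exon bases Wsb2.

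The enzymes that finish Okazaki fragments or remove uracil were lower than control in TC and in TCZ, and none passed between TCZ and TC. Ung (chr5:114130361-114139321, plus strand), uracil-DNA glycosylase, had the largest fall of the list, from 6.47 and 5.44 CPM in control to 1.94 and 1.49 CPM in TC and 2.14 and 1.45 CPM in TCZ. The 4 treated libraries lay far below both control libraries. Ung fell by 1.80 ± 0.24 in TC (adjusted p = 1.004e-06) and by 1.69 ± 0.25 in TCZ (adjusted p = 3.71e-06). Fen1, the flap endonuclease, read 5.09 and 4.61 CPM in control, 1.69 and 1.71 CPM in TC, and 2.47 and 2.07 CPM in TCZ. Its log2 changes were -1.51 ± 0.23 (adjusted p = 6.50e-06) and -1.08 ± 0.23 (adjusted p = 3.75e-04), but 78.8% of the Fen1 exon bases overlap the antisense gene Gm10143, so its values are uncertain. Lig1, the ligase that seals the fragments, was at 36.3 ± 0.90 CPM (SD, n = 2) in control, 28.7 ± 0.96 CPM in TC and 25.3 ± 0.39 CPM in TCZ. Lig1 fell by 0.34 ± 0.08 in TC (adjusted p = 8.54e-04) and by 0.52 ± 0.08 in TCZ (adjusted p = 9.32e-06). In TCZ against TC Lig1 was at -0.18 ± 0.08 (adjusted p = 0.0589), while Fen1 and Ung were at 0.43 ± 0.24 and 0.11 ± 0.26. The Lig1 difference passed with library totals (-0.241, adjusted p = 0.0107) and with only the groups compared (adjusted p = 0.0404).

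Nucleotide supply genes parted within one enzyme. Rrm1 (chr7:102441695-102469771, plus strand), the large subunit of ribonucleotide reductase, read 274 and 257 CPM in control, 343 and 341 CPM in TC, and 287 and 291 CPM in TCZ. Rrm2 (chr12:24708254-24714146, plus strand), the small subunit whose level is cell cycle dependent, read 198 and 193 CPM, 188 and 184 CPM, and 277 and 265 CPM. Rrm1 was therefore highest in TC and Rrm2 highest in TCZ, with no overlap in either case. In TCZ against control Rrm1 was at 0.125 ± 0.07 (adjusted p = 0.128). It passed as higher there with RLE size factors (adjusted p = 0.0332), DESeq2 (0.0134) and the filter of 50 counts (0.00347). A batch term for control 2 and TCZ 2 gave 0.0169. Rrm1 rose by 0.37 ± 0.07 in TC (adjusted p = 9.35e-05) and was at -0.24 ± 0.07 in TCZ against TC (adjusted p = 0.00545, or 0.0822 without TC 1 and 0.0584 without TC 2). Rrm2 was at -0.07 ± 0.07 in TC (adjusted p = 0.401), rose by 0.47 ± 0.07 in TCZ against control (adjusted p = 4.17e-06) and was 0.54 ± 0.07 above TC (adjusted p = 8.40e-07). The RPKM ratio of Rrm2 to Rrm1 stood at 1.32 and 1.38 in the control libraries, 1.01 and 0.991 in those of TC and 1.77 and 1.67 in those of TCZ, so the 3 groups were separate.

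Both thymidylate enzymes fell. Tk1 (chr11:117815519-117826087, minus strand), cytosolic thymidine kinase, read 29.9 and 30.7 CPM in control, 13.0 and 13.3 CPM in TC, and 17.6 and 16.7 CPM in TCZ. The treated libraries lay below control and TC below TCZ. Tk1 fell by 1.20 ± 0.09 in TC (adjusted p = 1.16e-10) and by 0.82 ± 0.09 in TCZ (adjusted p = 6.98e-08), and TCZ was 0.38 ± 0.09 above TC (adjusted p = 0.00139). Tyms, thymidylate synthase, was at 30.5 ± 0.65 CPM (SD, n = 2) in control, 21.0 ± 2.05 CPM in TC and 21.3 ± 0.27 CPM in TCZ, with log2 changes of -0.54 ± 0.09 and -0.51 ± 0.09 (adjusted p = 1.65e-05 and 4.43e-05).

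The pair of chromatin genes also diverged. Chaf1a, a subunit of the assembly factor that places histones on new DNA, read 44.1 and 45.4 CPM in control, 19.3 and 20.9 CPM in TC, and 26.5 and 24.7 CPM in TCZ. Its groups did not overlap, with log2 changes of -1.15 ± 0.08 in TC (adjusted p = 5.79e-11) and -0.80 ± 0.08 in TCZ (adjusted p = 2.77e-08) and a TCZ level 0.35 ± 0.09 above TC (adjusted p = 0.00126). Of the Chaf1a exon bases 52.5% overlap Ubxn6 on the opposite strand, which makes its values uncertain. Hells, a chromatin remodeller of the SNF2 family, was at 43.7 ± 2.46 CPM (SD, n = 2) in control and 42.0 ± 0.77 CPM in TC, and reached 59.7 ± 4.93 CPM in TCZ. Hells was 0.44 ± 0.08 above control (adjusted p = 4.80e-05) and 0.50 ± 0.08 above TC (adjusted p = 1.17e-05) in TCZ, and at -0.06 ± 0.08 in TC against control (adjusted p = 0.53).

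**Figure D3:**
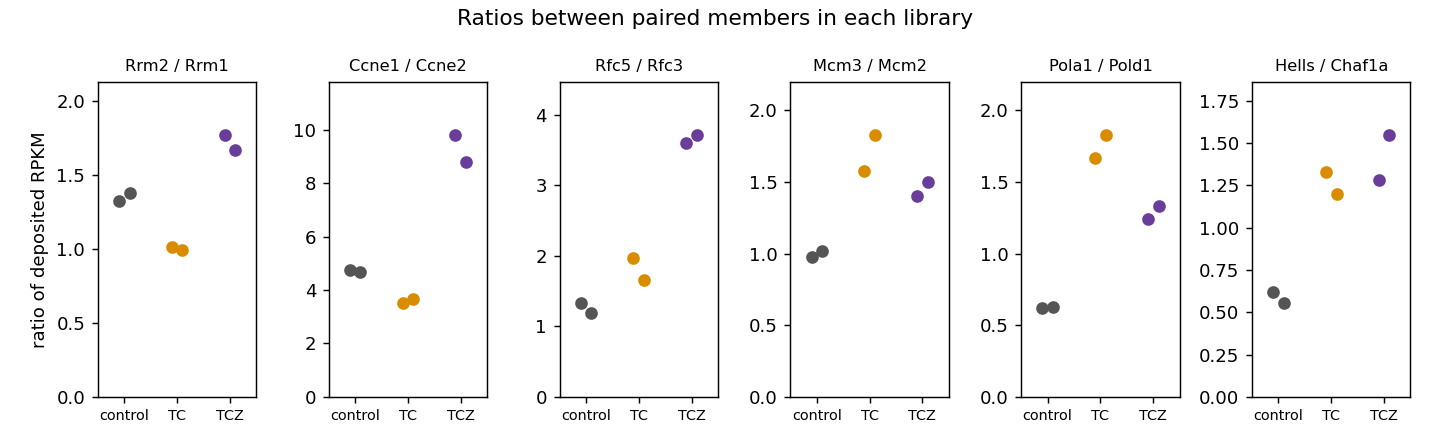
Ratio of deposited RPKM between 6 pairs of members in each of the 6 libraries (y axis from 0, a scale per panel) for control, TC and TCZ (x axis, 2 points a group). Rrm2 to Rrm1 is lowest in TC (1.01 and 0.991) and highest in TCZ (1.77 and 1.67), while Pola1 to Pold1 is lowest in control (0.622 and 0.626) and highest in TC (1.67 and 1.83).

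Proportions between members within a library are given for a few pairs chosen after their values were seen. On the RPKM scale Rrm2 had the highest control mean of the list at 97.0, followed by Pcna at 80.2 and Rrm1 at 71.8, and Fen1 had the lowest at 2.19. In TC the order of the first 3 became Rrm1 (83.7), Rrm2 (83.5) and Pcna (56.8), with Rrm1 and Rrm2 not apart beyond the gap between libraries. In TCZ it was Rrm2 (117), Pcna (101) and Rrm1 (68.3). The RPKM ratio of Mcm3 to Mcm2, subunits present once each in the ring, stood at 0.977 and 1.02 in the control libraries, 1.58 and 1.83 in those of TC and 1.4 and 1.5 in those of TCZ. The ratio of Mcm4 to Mcm5 was 2.2 and 1.96, then 3.69 and 3.38, then 2.72 and 2.68. Both MCM ratios were therefore higher in every treated library than in control, with TC above TCZ. The ratio of Hells to Chaf1a stood at 0.622 and 0.558 in the control libraries, 1.33 and 1.2 in those of TC and 1.28 and 1.55 in those of TCZ, where the treated groups overlapped.

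Other genes of the same processes also fell for the most part in TC. Of 44 further fork and origin genes that were tested, 25 fell and 4 rose in TC (median log2 fold change -0.35). In TCZ against control 13 fell and 6 rose (median -0.10, or 25 and 4 with library totals), and in TCZ against TC 23 were higher and 4 lower (median 0.28, or 21 and 7 with library totals). Wdhd1, a polymerase alpha accessory factor, fell from 23.7 ± 0.41 CPM (SD, n = 2) to 9.33 ± 0.06 CPM in TC and 7.84 ± 1.73 CPM in TCZ. Topbp1, needed for origin firing, went from 136 ± 4.34 CPM to 59.5 ± 0.83 CPM and 90.6 ± 0.62 CPM, so TCZ lay between the other groups. Accessory subunits of polymerase delta parted in TCZ. Pold3 was at 17.5 ± 0.39 CPM, 11.1 ± 0.60 CPM and 7.68 ± 0.10 CPM, lowest in TCZ, whereas Pold2 was at 18.2 ± 0.79 CPM, 10.4 ± 0.33 CPM and 18.3 ± 1.30 CPM, lowest in TC. Among genes that rose, Top1, which relaxes DNA ahead of the fork, went from 118 ± 5.40 CPM to 263 ± 1.98 CPM and 403 ± 16.6 CPM, and Gmnn, which encodes the CDT1 inhibitor geminin, from 10.6 ± 0.33 CPM to 16.4 ± 0.65 CPM and 31.6 ± 1.17 CPM. Orc4 rose by 0.87 ± 0.08 in TC (adjusted p = 1.53e-09), while Orc3 passed as lower in TCZ against TC (-0.39 ± 0.08, adjusted p = 2.76e-04).

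Of 31 further nucleotide supply genes, 16 fell and 7 rose in TC (median -0.30), and 17 were higher and 4 lower in TCZ than in TC (0.25). In TCZ against control 9 fell and 6 rose with a median of -0.006, which was 0.02 with RLE size factors (8 fell and 9 rose) and -0.21 with library totals (20 fell and 4 rose). Mthfd2, of mitochondrial folate metabolism, was at 121 ± 11.3 CPM (SD, n = 2) in control, 39.6 ± 1.20 CPM in TC and 111 ± 4.14 CPM in TCZ. Dck, deoxycytidine kinase, followed the same course at 27.1 ± 1.76 CPM, 11.7 ± 0.37 CPM and 23.9 ± 1.501 CPM. For both genes TC lay far below the other groups, and TCZ did not pass against control (adjusted p = 0.17 and 0.0836). Impdh1, of guanine nucleotide synthesis, fell by 1.30 ± 0.08 in TC and 0.73 ± 0.08 in TCZ (adjusted p = 3.97e-12 and 5.32e-08). Samhd1, which breaks down deoxynucleotides, was at 72.9 ± 1.22 CPM, 168 ± 2.98 CPM and 115 ± 4.69 CPM, highest in TC. Tk2, the mitochondrial thymidine kinase, fell in TCZ against control (-0.58 ± 0.12, adjusted p = 2.43e-04) and did not pass in TC (adjusted p = 0.835).

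Of 11 further genes for copying chromatin, 8 fell and 2 rose in TC (median -0.34), 6 fell and 4 rose in TCZ against control (-0.20), and 8 were higher and 0 lower in TCZ than in TC (0.21). Asf1b, a histone chaperone, dropped from 20.2 ± 1.43 CPM (SD, n = 2) to 4.77 ± 0.11 CPM in TC and was at 8.88 ± 1.01 CPM in TCZ. Chaf1b, a partner of Chaf1a, fell by 0.86 ± 0.10 in TC (adjusted p = 1.24e-07). Slbp, which binds the end of histone transcripts, was at 31.9 ± 1.24 CPM, 37.2 ± 4.86 CPM and 86.3 ± 1.91 CPM, and Nasp, a histone chaperone, at 55.9 ± 2.90 CPM, 48.2 ± 4.50 CPM and 101 ± 0.94 CPM. For both the TCZ level was well above the other groups, by 1.22 ± 0.08 and 1.07 ± 0.08 over TC (adjusted p = 6.21e-11 and 1.78e-10). Atad2 rose by 0.59 ± 0.07 in TC and 0.79 ± 0.08 in TCZ (adjusted p = 4.91e-07 and 7.01e-09), and Mms22l fell by 0.54 ± 0.10 and 0.47 ± 0.11 (adjusted p = 9.89e-05 and 5.74e-04).

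Regulators of S phase entry moved in both directions. Of 31 such genes other than the 3 members, 17 fell and 8 rose in TC (median -0.71), and 20 fell and 10 rose in TCZ against control (-0.41, or 21 and 5 with library totals). In TCZ against TC 12 were higher and 11 lower, with a median of 0.008 that turned to -0.05 with library totals. Ccnd2, which encodes cyclin D2, went from 1132 ± 59.4 CPM (SD, n = 2) in control to 309 ± 7.64 CPM in TC and 215 ± 4.59 CPM in TCZ. Skp2, which targets the CDK inhibitor p27 for degradation, went from 32.4 ± 0.43 CPM to 9.62 ± 0.14 CPM and 7.01 ± 0.91 CPM, while Cdkn1b, which encodes p27, went from 28.9 ± 3.78 CPM to 6.92 ± 0.89 CPM and 8.61 ± 0.11 CPM. All 3 were lower in both treated groups than in control. Cdc25a, a phosphatase that activates CDK2, was lowest in TCZ, at 36.5 ± 0.81 CPM, 21.2 ± 1.003 CPM and 12.4 ± 0.37 CPM. Ccnd3 (90.2 ± 2.46 CPM, 36.8 ± 0.57 CPM and 67.7 ± 3.19 CPM) and Rbl2, a pocket protein gene (28.6 ± 4.05 CPM, 11.5 ± 0.20 CPM and 22.7 ± 1.37 CPM), were lowest in TC. Tfdp1, the dimer partner of E2F factors, fell by 1.11 ± 0.07 in TC and 0.69 ± 0.07 in TCZ (adjusted p = 1.57e-11 and 4.19e-08). E2f6, which encodes a repressor of the E2F family, fell by 1.56 ± 0.09 and 1.73 ± 0.09 (adjusted p = 1.46e-12 and 4.31e-13), and Ccna2, the S phase cyclin, by 1.17 ± 0.07 and 0.92 ± 0.07 (adjusted p = 5.48e-12 and 3.45e-10).

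The regulators that rose included both activators and inhibitors of the cell cycle. Myc, a transcription factor that promotes proliferation, rose from 82.1 ± 7.27 CPM (SD, n = 2) in control to 274 ± 1.52 CPM in TC and 535 ± 42.9 CPM in TCZ. Cdkn1a, which encodes the CDK inhibitor p21, rose from 284 ± 18.2 CPM to 803 ± 6.46 CPM and 919 ± 72.4 CPM. Cdk6, the partner of the D cyclins, was highest in TC, at 61.7 ± 1.65 CPM, 249.2 ± 3.30 CPM and 112 ± 5.44 CPM. E2f7, an E2F repressor, had the same order of groups, at 20.2 ± 0.57 CPM, 47.2 ± 0.66 CPM and 26.7 ± 2.44 CPM. Rb1 rose by 0.67 ± 0.09 in TC and 0.45 ± 0.09 in TCZ (adjusted p = 1.35e-06 and 2.27e-04), E2f5 by 0.48 ± 0.11 in TC (adjusted p = 9.47e-04), and Cdkn1c, which encodes p57, by 0.56 ± 0.09 in TCZ (adjusted p = 1.66e-05). E2f4 was lower in TCZ than in TC (-0.48 ± 0.07, adjusted p = 8.15e-06).

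**Figure D4:**
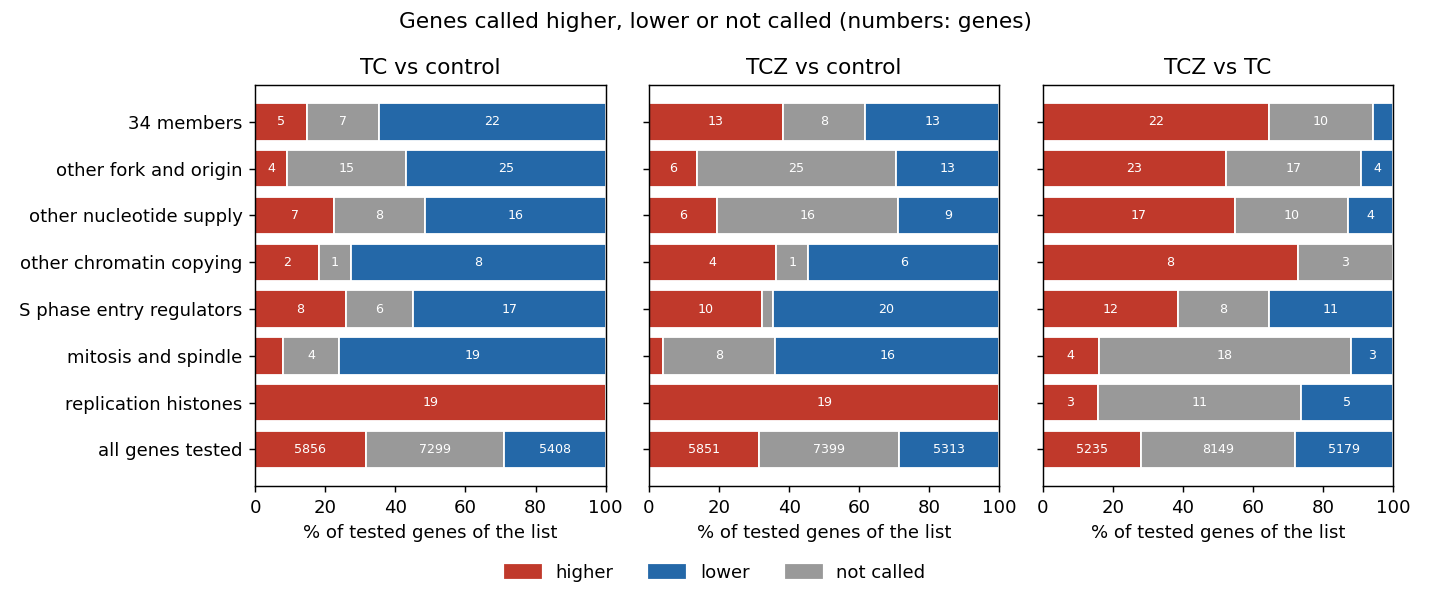
Share of the tested genes of each list (x axis, percent) called higher (red), lower (blue) or not called (grey) in the 3 comparisons, for the 34 members, 4 lists of related genes, mitosis genes, histone genes and all genes tested (y axis), with the number of genes in the bars. In TCZ against TC the members (22 higher, 2 lower) have more red than the mitosis list (4 higher, 3 lower).

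Lists from other stages of the cell cycle are given for comparison. Of 25 mitosis and spindle genes 19 fell and 2 rose in TC (median log2 fold change -0.42), 16 fell and 1 rose in TCZ against control (-0.40), and 4 were higher and 3 lower in TCZ than in TC, with a median of 0.007 that turned to -0.048 with library totals (4 higher and 5 lower). The mitotic kinase gene Plk1 was at 61.0 ± 5.24 CPM (SD, n = 2), 26.7 ± 0.41 CPM and 15.9 ± 1.76 CPM, lowest in TCZ, as was the centromeric histone gene Cenpa, at 31.7 ± 3.52 CPM, 20.8 ± 0.002 CPM and 16.0 ± 0.01 CPM. Aurkb (24.1 ± 0.76 CPM, 10.1 ± 0.35 CPM and 15.4 ± 0.33 CPM) and Kif20a (42.8 ± 0.77 CPM, 17.96 ± 0.56 CPM and 26.2 ± 0.54 CPM) were lowest in TC. Prc1 was at 0.26 ± 0.07 in TC and 0.26 ± 0.07 in TCZ against control (adjusted p = 0.00431 and 0.00376) and Nusap1 at 0.36 ± 0.09 in TC (adjusted p = 0.00143), calls lost with library totals (adjusted p = 0.0597, 0.284 and 0.057). The members' median in TCZ against TC was 0.35 where the mitosis list had 0.007, and the difference between these lists was not tested. Of 20 replication-dependent histone genes 19 were tested, and these 19 were called higher in TC and in TCZ (18 in TCZ with library totals), with medians of 4.53 and 4.12. Genes low in control can pass the low-count filter through the treated libraries alone, so this count is a description. Between TCZ and TC 3 of the 19 were higher and 5 lower (median -0.10). Histone transcripts of this class normally end without a poly(A) tail and have near-identical copies, so single histone values from poly(A)-selected RNA are uncertain. Hist1h2bc rose from 29.3 ± 3.17 CPM to 366 ± 21.9 CPM in TC and 587 ± 33.7 CPM in TCZ. Hist1h1a and Hist1h2bj also rose in TC, from 0.101 ± 0.002 CPM to 29.3 ± 0.71 CPM and from 0.492 ± 0.055 CPM to 37.1 ± 0.48 CPM. Hist1h1d, a linker histone gene like Hist1h1a, was at 0.69 ± 0.19 CPM, 23.9 ± 0.96 CPM and 10.8 ± 0.03 CPM.

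E2F words occurred in members that rose and in members that fell. In TC against control, 7 of the 18 lower members with a promoter, 2 of the 4 higher and 3 of the 6 not called held an E2F word, as in the windows of Rfc3, Orc1, Mcm3 and Pola1 printed above. Ccne1 and Ung, lower in TC, and Mcm10, higher in TC, held no E2F word. In TCZ against TC the E2F word occurred in 8 of 19 higher members, in 0 of 1 lower and in 4 of 8 not called. CCAAT occurred in 6 of the 18 lower, 4 of the 4 higher and 5 of the 6 uncalled members in TC against control. In TCZ against control it occurred in 9 of 12 higher members, 2 of 12 lower ones and 4 of 4 not called, and in TCZ against TC in 11 of 19 higher, 1 of 1 lower and 3 of 8 not called. These are counts of letters in the members' windows, given with no test.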

How the data were processed

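RNA from 6 libraries was measured. For every library the authors deposited raw gene counts beside RPKM, per the file headers. The submitters' processing notes name bcl2fastq, HISAT2 2.1.0, HTSeq and build mm10; no source used here gives the strand setting or annotation. The deposited RPKM equalled values recomputed from counts, gene length and library total within 5e-07, and RPKM served only to compare levels between genes. The 34 members and the gene lists were chosen with earlier results of these data known, so counts over them are descriptions.

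Counts were tested in R 4.3.3 with edgeR 4.0.16. Genes passed filterByExpr by group (minimum count 10), TMM scaled the library totals, and all 6 libraries entered a model with group as the factor, which left 3 residual degrees of freedom. Quasi-likelihood tests were adjusted by Benjamini-Hochberg over 18563 genes, with a threshold of 0.05. The procedure was tested on simulated data in which most genes did not change. That simulation could not check the TMM scaling for these data, where 60.7% of genes were called in TC against control. Log2 fold changes carry a standard error, and levels the SD of 2 libraries. Library totals are given with the results, and groups of 2 libraries limit the precision.

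Values in every library were given for the 3 largest rises and falls of members per comparison, for E2f1, Ccne1 and Ccne2, and for members that moved in opposite directions in TC against control and TCZ against TC. Of each further list, the 2 largest changes in each direction per comparison were named among genes of at least 10 CPM (6 for regulators of S phase entry); one listed symbol was not matched in the table, and some items that this rule or the lists hold are not reported here. Ratios between members were chosen after their values were seen. Libraries of a group differed by more than sampling noise (chi-square per gene of 4.42, 5.19 and 7.24), so none was treated as another library deposited again; this does not show that they are biological replicates. Alternatives were RLE size factors, library totals, DESeq2 1.42.0, limma-voom (limma 3.58.1), dropping the low-count filter, requiring 50 counts in 2 libraries, only the groups compared, a replicate block, each library left out, control 2 and TCZ 2 left out or given a batch term. Exon overlaps were counted on a GRCm38 gene annotation.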

Additional observations from a re-analysis of the deposited data

How the results depend on the processing

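Of 77 calls of members, 54 held in all 16 alternatives, 24 of 27 in TC against control, 16 of 26 in TCZ against control and 14 of 24 in TCZ against TC, and of 25 members not called 8 stayed uncalled in all 16. Of 127 calls of other named genes, 108 held in all 16. Members lower in TCZ than in TC numbered 2, and 1 with RLE size factors, DESeq2, limma-voom, no low-count filter, the filter of 50 counts, the replicate block, control 2 and TCZ 2 left out, or a batch term for them, and 0 to 2 with 1 library left out. Members higher in TCZ than in control numbered 13, 7 with library totals, and 8 to 12 with 1 library left out. Mcm2 in TCZ against control reversed to -0.178 with library totals. Median RPKM of the members was 12.7 in control, 7.46 in TC and 8.47 in TCZ as deposited, and 11.8, 7.63 and 8.98 with TMM-scaled library sizes. The cause of these changes was not tested.

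With the replicate block the members higher and lower numbered 5 and 22 in TC against control, 13 and 13 in TCZ against control, and 22 and 1 in TCZ against TC, where Ccne2 was lost (adjusted p = 0.0592). Libraries share only a number: deviations from the group means of replicate 1 correlated at 0.006 for control with TC, 0.22 for control with TCZ and -0.041 for TC with TCZ. Depth limits the members with few counts, such as Ung, Fen1 and Gins1, whose standard errors were between 0.22 and 0.26.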
